A study of Mus musculus with 11 samples.

Results

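The genes described here encode centrosomal proteins, most of them named Cep for centrosomal protein, and were followed through RNA sequencing of mouse mitral leaflets. Members were all gene symbols made of Cep, a number and an optional suffix, except Cep164 and Cep290, together with Pcnt, Cdk5rap2, Plk4, Sass6, Cenpj, Odf2 and Ninl. The rule used names and no measured value. It found 39 of 24062 genes in the table of the Ift88 experiment and 25 of 26667 genes in the table of the Dzip1 experiment, and all of them passed the filter on low counts, among 14244 and 16160 tested genes. In both tables stood 24 members, 15 were in the Ift88 table alone, and 1, Cep110, was in the Dzip1 table alone. Cep110 is an older symbol of Cntrl by RefSeq synonyms. One member, Cep83os, is a non-coding transcript that starts next to Cep83 and reads the other way.

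Leaflets are the moving flaps of the valve that separates the left heart chambers. The Ift88 experiment held 3 libraries labelled knockout (KO), from mice that carried NfatC1Cre and 2 floxed Ift88 alleles, and 2 wild-type libraries from mice with NfatC1Cre and Ift88+/+, so that all 5 carried the Cre. In the Dzip1 experiment 3 libraries were heterozygous for the allele S14R (S14R/+) and 3 were Dzip1+/+. Titles of the Ift88 libraries mark them as re-analyzed. The labels used here give neither age nor strain. Nfatc1 is active in endocardial cells, so the Cre reaches that lineage and not every cell of a leaflet. The labels do not say whether libraries came from separate animals, and p-values therefore measure only the spread between these libraries, which may be technical.

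A centrosome is a pair of centrioles inside a cloud of pericentriolar material, the matrix that anchors gamma-tubulin and nucleates microtubules. In dividing cells each centriole templates a new one once per cycle: the kinase Plk4 starts the step, Sass6 builds the cartwheel of the new centriole, and Cenpj lets its microtubules grow. In resting cells the older centriole docks at the membrane through its distal appendages and becomes the basal body of the primary cilium, the organelle that intraflagellar transport, with Ift88, builds from there. Dzip1 acts at the base of the cilium.

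Total counts per library were 23.4 to 40.3 M in the Ift88 KO and 31.4 and 53.8 M in its wild type, against 86.0 to 93.5 M in S14R/+ and 75.1 to 79.1 M in the Dzip1 wild type. Replicates varied far more among the Ift88 libraries, with a biological coefficient of variation of 87.7%, than among the Dzip1 libraries, with 7.85%. Ift88 itself stood at 3.00, 3.91 and 0.409 CPM (counts per M, TMM-scaled) in the KO libraries and 7.53 and 19.8 CPM in the wild-type libraries. Dzip1 stood at 28.7 ± 0.721 CPM in S14R/+ and 29.9 ± 1.98 CPM in wild type (SD, n = 3 each). In the Ift88 experiment the summed level of 20 cardiomyocyte markers was 35192 to 47986 CPM in the KO libraries, 86199 CPM in wild-type replicate 1 and 134 CPM in wild-type replicate 2, and of those markers Sln alone was at 0, in KO replicate 1. The 12 fibroblast markers summed to 6598 to 9414 CPM in the KO, against 2104 and 4534 CPM in the wild type, and the 12 endothelial markers to 2277 to 3104 CPM, against 427 and 3936 CPM, with no marker of either list at 0 in any library of either experiment. Smaller sums were those of smooth muscle (802 to 1641 CPM in the KO, against 1524 and 727 CPM), leukocyte (200 to 370, against 237 and 473 CPM), melanocyte and Schwann (102 to 250, against 82.0 and 89.7 CPM), adipocyte (186 to 213, against 558 and 38.2 CPM), epicardial (16.2 to 227, against 60.5 and 17.9 CPM) and erythroid markers (0 to 34.9, against 99.0 and 2.60 CPM). By Xist and Y-linked counts KO replicate 3 was male and the other 4 Ift88 libraries were female. In the Dzip1 experiment S14R/+ replicate 2 and wild-type replicate 3 were female and the others male. What these differences contribute to the member values was not tested.

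The first comparison addressed how centrosomal transcripts differ between Ift88 KO and wild-type leaflets. Several long-transcript members stood higher in the KO libraries, led by Pcnt, which encodes the scaffold pericentrin, Cep135, a protein of the cartwheel, Cep350, Cep162, Ninl and Cdk5rap2. In 11 of the 39 members (28.2%) every KO library lay above both wild-type libraries, against 13.5% of all tested genes. In 3 (7.69%) every KO library lay below, against 11.1% of all tested genes. The median member log2 fold change was 0.62, against -0.01 over all tested genes, and 27 members (69.2%) were above 0, against 49.4%. These counts depended on the libraries: the 11 became 17, 21 or 17 when KO replicate 3, wild-type replicate 1 or wild-type replicate 2 was left out, and then 21.4%, 30.1% and 32.6% of all genes lay apart in that direction. The 3 that lay below became 12 (30.8%) without wild-type replicate 2, where 31% of all genes lay below. The median member log2 fold change was 0.34 without KO replicate 1, beside -0.05 over all genes, 0.43 without wild-type replicate 1, beside 0.15, and 0.41 without wild-type replicate 2, beside 0.25.

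No member passed the threshold (edgeR quasi-likelihood test, Benjamini-Hochberg adjusted p under 0.05 over all tested genes), and 0% of all genes did. At an unadjusted p under 0.05 stood 2 members, Pcnt and Cep135, and 856 genes in all (6.01%). DESeq2 called the same 2 members, both higher, among 376 genes (2.33%), and limma-voom called 0 members and 0 genes. In the authors' deposited table, 1 of the 39 members had an adjusted p under 0.05, which was Pcnt, among 184 of 12872 genes (1.43%). Leaving out each library in turn kept the sign of 25 of the 39 members. In bulk tissue, fewer cells of a type and less RNA per cell cannot be told apart.

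**Figure D1:**
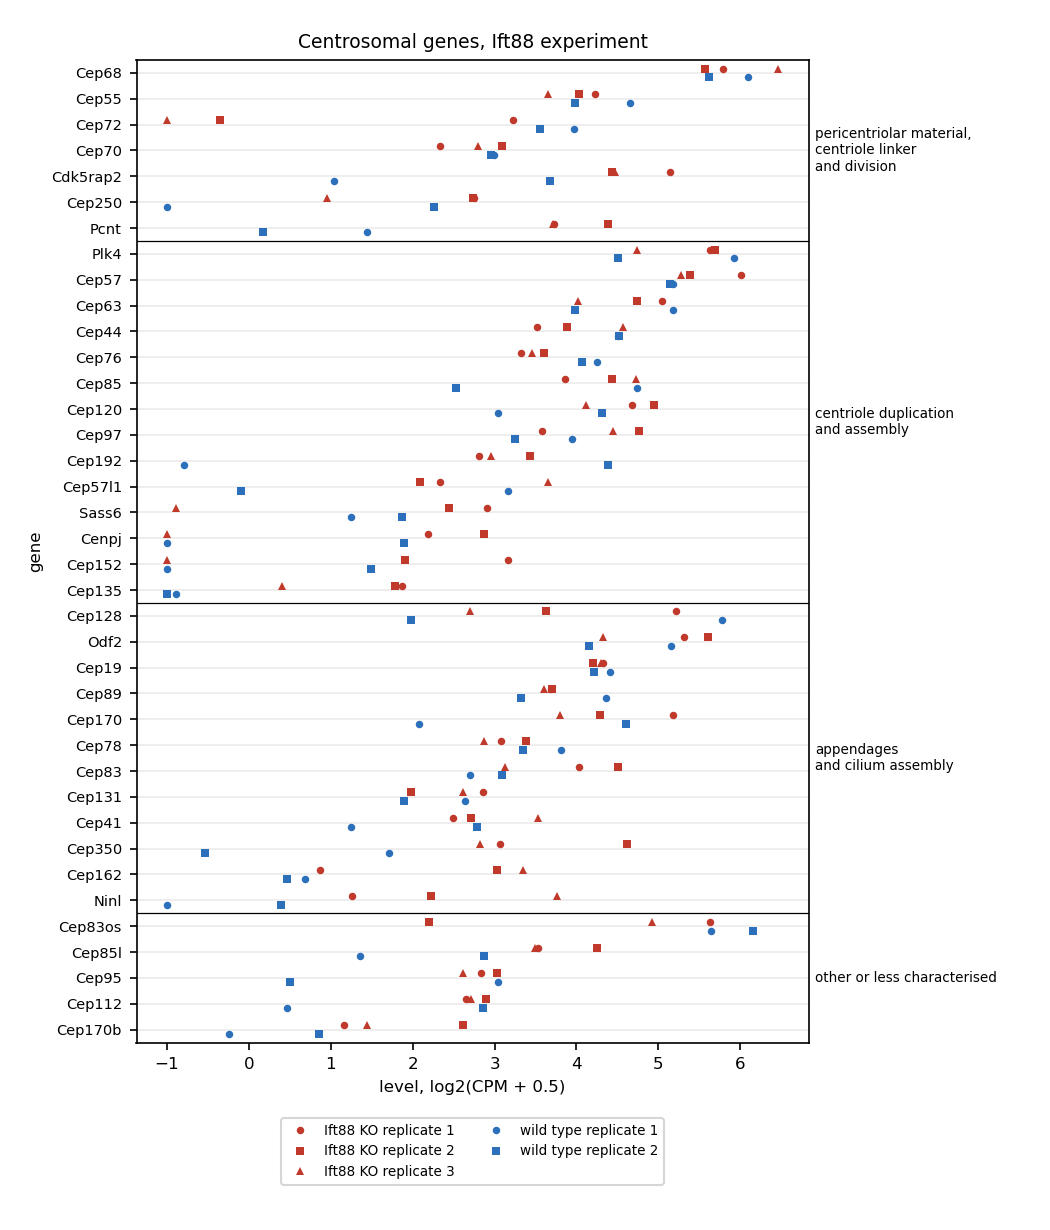
Levels of 38 of the 39 members in each library of the Ift88 experiment, as log2(CPM + 0.5), grouped by role and ordered by wild-type mean, with Ift88 KO points (red) above wild-type points (blue) in each row. Pcnt, Cep135, Cep350, Ninl and Cdk5rap2 have all 3 KO libraries to the right of both wild-type libraries, and Cep72, Cep76 and Cep83os have them to the left.

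Among the 7 genes of the pericentriolar material, the linker between centrioles and division, 2 had every KO library above both wild-type libraries and 1 had every KO library below, beside 13.5% and 11.1% of all tested genes. The median log2 fold change of the 7 was 0.12, and -0.18 after a correction for transcript length. Pcnt, on chromosome 10 of GRCm38 (76351263 to 76442786, reverse strand), had 405, 865 and 309 counts in the KO libraries, against 58 and 36 in the wild-type libraries. Its level was 12.8, 20.4 and 12.6 CPM in the KO libraries, against 2.21 and 0.624 CPM in the wild-type libraries. All 3 KO libraries were well clear of both wild types. The log2 fold change was 3.44 ± 0.936 (SE; 95% interval 1.16 to 5.71), with adjusted p = 0.801 in edgeR and 0.00298 in DESeq2, where it was 3.38. It was 2.79 to 4.57 when libraries were left out in turn, 2.91 among the 3 libraries whose titles share the prefix IR28N, and 2.23 after a correction for transcript length. The authors' deposited table gives 2.31 with an adjusted p of 0.00977.

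Cdk5rap2, which anchors gamma-tubulin complexes in the same matrix, stood at 35.0, 21.2 and 21.7 CPM in the KO libraries, against 1.56 and 12.3 CPM in the wild-type libraries. The groups did not overlap, but the wild-type libraries differed more from each other than the KO libraries did. The log2 fold change was 1.90 ± 0.937 (SE), with adjusted p = 0.806 in edgeR, and 0.57 after the length correction. Without wild-type replicate 2 it was 4.05, and without wild-type replicate 1 it was 1.05. Cep72, another centrosomal matrix protein, went the other way and was unevenly spread, with 280, 12 and 0 counts in the KO libraries, against 400 and 650 in the wild-type libraries. In CPM that was 8.84, 0.283 and 0 against 15.2 and 11.3, a log2 fold change of -2.12 ± 2.04 (SE) with adjusted p = 0.916 in edgeR. KO replicates 2 and 3 were at or near 0, and KO replicate 1 also lay below both wild types. Cep250, a linker protein at the base of the centriole, stood at 6.25, 6.15 and 1.43 CPM, against 0 and 4.28 CPM, and the groups overlapped. Cep68, another linker protein, Cep55, which acts in the final separation of daughter cells, and Cep70 overlapped as well, with log2 fold changes of 0.12, -0.38 and -0.22.

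The centriole duplication and assembly group held 14 genes, of which 2 lay apart upward and 1 downward, which is near the 13.5% and 11.1% of all tested genes. Their median log2 fold change was 0.53, and 0.30 after the length correction. Cep135, which links the cartwheel to the centriole wall, lies on chromosome 5 (76588698 to 76646466, forward strand) and had 100, 125 and 20 counts in the KO libraries, against 1 and 0 in the wild-type libraries. The ratio of the group totals, scaled to library size, was 209, with a 95% counting interval of 37.1 to 8285 that covers counting error only. Its level was 3.16, 2.95 and 0.818 CPM in the KO, so the difference rests on a gene that was low in all 5 libraries. The adjusted p was 0.801 in edgeR and 0.0167 in DESeq2. Cep57, which holds pericentriolar material to the centriole, stood at 63.9, 41.5 and 38.3 CPM in the KO libraries, against 35.9 and 34.9 CPM in the wild-type libraries. Its groups lay close together without overlap, with a log2 fold change of 0.44 ± 0.403 (SE), and 0.14 without KO replicate 1. Cep76, which restrains centriole reduplication, stood at 9.50, 11.7 and 10.5 CPM, against 18.6 and 16.3 CPM. It was the steadiest of the lower members: its log2 fold change was -0.72 ± 0.536 (SE; adjusted p = 0.884 in edgeR) and stayed between -0.81 and -0.66 when libraries were left out.

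The genes that act at the core of duplication overlapped between the groups. Plk4 stood at 49.1, 51.4 and 26.2 CPM in the KO libraries, against 60.2 and 22.2 CPM in the wild-type libraries. Its log2 fold change was 0.04, which turned below 0 in 8 of the 15 alternatives. Sass6 had 6.98, 4.93 and 0.0409 CPM, against 1.86 and 3.17 CPM, and Cenpj 4.07, 6.84 and 0 CPM, against 0 and 3.20 CPM. Both were thus near 0 in KO replicate 3. Cep152, which recruits Plk4, was at 0 in the same KO library and in wild-type replicate 1. Cep192, which recruits both Plk4 and pericentriolar material, stood at 6.5, 10.3 and 7.28 CPM in the KO, against 0.0761 and 20.4 CPM in the wild type. The 2 wild-type libraries held the lowest and the highest value of all 5. Cep120, needed for centriole elongation, and Cep97, a partner of the capping protein Ccp110, had log2 fold changes of 0.83 ± 0.612 and 0.73 ± 0.619 (SE). Their groups overlapped, and Cep97 turned to -0.32 after the length correction. Cep44, with 10.9, 14.2 and 23.2 CPM against 22.2 and 22.5 CPM, had -0.47.

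Promoter windows of the 2 members that DESeq2 called are shown from RefSeq on GRCm38.p6, each reaching from 250 bases before the start to 50 after it, on the gene's strand. Capitals mark the letters of an E2F motif (TTCCCGCC) and of a CCAAT box (CCAAT, or ATTGG when read on the other strand). Coordinates are chr10:76442863-76443162 (reverse strand) for Pcnt and chr5:76588449-76588748 (forward strand) for Cep135.
Pcnt: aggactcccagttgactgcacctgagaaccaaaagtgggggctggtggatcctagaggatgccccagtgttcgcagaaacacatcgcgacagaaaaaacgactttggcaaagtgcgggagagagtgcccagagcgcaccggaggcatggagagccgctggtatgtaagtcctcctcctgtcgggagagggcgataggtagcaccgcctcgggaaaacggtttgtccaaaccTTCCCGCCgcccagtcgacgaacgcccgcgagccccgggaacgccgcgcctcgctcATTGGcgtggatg
Cep135: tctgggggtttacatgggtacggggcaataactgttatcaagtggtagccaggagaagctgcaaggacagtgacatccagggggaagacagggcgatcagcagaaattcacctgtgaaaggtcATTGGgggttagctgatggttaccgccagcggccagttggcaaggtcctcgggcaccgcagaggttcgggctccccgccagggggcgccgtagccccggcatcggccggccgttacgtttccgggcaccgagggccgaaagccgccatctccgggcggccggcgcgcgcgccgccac
Pcnt carried both motifs, and Cep135 a CCAAT box alone. Of 40 member symbols, 35 had a promoter entry. The E2F letters, on either strand, stood in 6 of the 35 (17.1%; Cep112, Cep152, Cep44, Cep70, Cntrl and Pcnt) and in 2.52% of 27025 genes with an entry. The CCAAT letters stood in 14 members (40.0%), against 41.1% of all genes. TTTGAA, the core of the cell cycle homology region, stood in 11 members (31.4%), against 20.2%. Letters of different motifs may overlap. A match describes the sequence alone: among the members with the E2F letters, the log2 fold change in the KO was 3.44 for Pcnt, 1.74 for Cep152, 0.71 for Cep112, -0.22 for Cep70 and -0.47 for Cep44.

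Of the 13 genes of centriole appendages and cilium assembly, 5 had every KO library above both wild types and none lay below, beside 13.5% and 11.1% of all tested genes. Their median log2 fold change was 0.45, and 0.18 after the length correction. Cep350, a very large protein of the centriole wall, stood at 7.86, 24.1 and 6.55 CPM in the KO libraries, against 2.78 and 0.191 CPM in the wild-type libraries. Every KO library was above, with a log2 fold change of 3.12 ± 1.42 (SE), adjusted p = 0.801 in edgeR, a value of 1.59 after the length correction and a range of 2.21 to 6.01 when libraries were left out. Ninl, the ninein-like protein, stood at 1.89, 4.17 and 13.1 CPM, against 0 and 0.814 CPM. All KO libraries were above, and the fitted log2 fold change was 3.94 ± 2.14 (SE). It was 2.87 without KO replicate 3 and 10.6 without wild-type replicate 2, when the remaining wild type is at 0 and the fitted value is no bound. Cep162, which reaches from the centriole tip to the transition zone of the cilium, had 1.33, 7.66 and 9.66 CPM, against 1.10 and 0.884 CPM. KO replicate 1 was thus close to the wild types, and the log2 fold change was 2.64 ± 1.33 (SE). Odf2, which builds the subdistal appendages, overlapped at 39.3, 48.4 and 19.5 CPM, against 35.1 and 17.3 CPM, with 0.45 ± 0.572 (SE). The further genes of the group with overlapping values, among them Cep89 of the distal appendages, Cep128 and Cep170 of the subdistal appendages and the ciliogenesis genes Cep19, Cep41, Cep78 and Cep131, ranged from -0.67 (Cep128) to 0.85 (Cep41).

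Cep83, which encodes the root of the distal appendages, and its non-coding neighbour were singled out after their values were seen, since they lay apart in opposite directions. Cep83 stood at 15.9, 22.2 and 8.27 CPM in the KO libraries, against 6.01 and 8.04 CPM in the wild-type libraries. Cep83os stood at 49.1, 4.10 and 29.7 CPM in the KO libraries, against 49.3 and 70.6 CPM in the wild-type libraries. Neither overlapped, although KO replicate 3 for Cep83 and KO replicate 1 for Cep83os came close to a wild type. The log2 fold changes were 1.14 ± 0.704 and -1.12 ± 0.902 (SE), with adjusted p = 0.856 and 0.894 in edgeR. The ratio of Cep83 to Cep83os was 0.323, 5.40 and 0.278 in the KO libraries, against 0.122 and 0.114 in the wild-type libraries. KO replicate 2 alone had more Cep83 than Cep83os. The RefSeq starts of the pair lie 177 bases apart on chromosome 10, at 94688790 for Cep83 (forward) and 94688613 for Cep83os (reverse). The window below is chr10:94688540-94688839 on the forward strand of GRCm38.p6, from RefSeq, and its capitals mark the 176 bases between the starts.
Cep83 and Cep83os: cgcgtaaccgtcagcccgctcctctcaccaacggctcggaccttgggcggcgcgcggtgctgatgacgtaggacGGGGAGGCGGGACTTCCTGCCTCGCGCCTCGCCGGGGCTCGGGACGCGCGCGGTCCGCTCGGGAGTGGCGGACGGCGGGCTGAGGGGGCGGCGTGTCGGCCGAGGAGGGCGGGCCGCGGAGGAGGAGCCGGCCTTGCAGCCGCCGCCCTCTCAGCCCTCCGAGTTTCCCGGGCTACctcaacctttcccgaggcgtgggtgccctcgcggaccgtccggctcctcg
Of the exonic bases of Cep83os in GENCODE M21, 5.24% are shared with a gene on the opposite strand, and none of those of Cep83. With the strand setting of the counting not given in the sources used here, reads of shared bases cannot be told apart. The same holds for 18.2% of the exonic bases of Sass6, 5.70% of those of Cep85l and 4.82% of those of Cep63. For Pcnt 5.26% are shared, with a gene on the opposite strand and another on its own strand. Reads shared with either gene cannot be told apart in these counts.

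**Figure D2:**
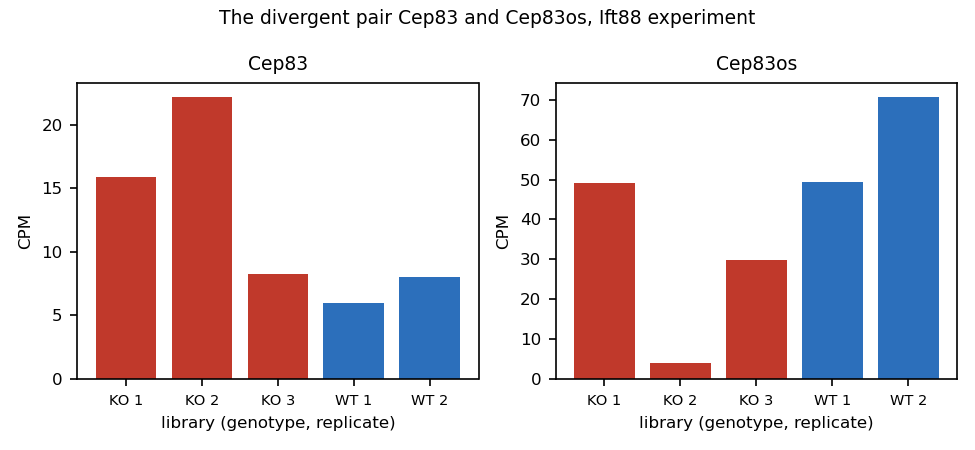
Bars give the CPM of Cep83 (left) and Cep83os (right) in each library of the Ift88 experiment, Ift88 KO in red and wild type in blue. Cep83 is above both wild types in each KO library and Cep83os below, with the lowest Cep83os bar, 4.10 CPM, and the highest Cep83 bar, 22.2 CPM, in KO replicate 2.

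Among the less characterised members, Cep85l, a relative of Cep85, stood at 11.0, 18.5 and 10.8 CPM in the KO libraries, against 2.05 and 6.81 CPM in the wild-type libraries. Cep170b, a relative of Cep170, stood at 1.74, 5.61 and 2.21 CPM, against 0.342 and 1.32 CPM. Both lay apart upward, with log2 fold changes of 1.60 ± 0.843 and 1.93 ± 1.5 (SE), and ranges of 0.94 to 2.71 and 1.23 to 3.20 when libraries were left out. Cep95 and Cep112 overlapped, at 0.62 and 0.71. Among the IR28N libraries alone, 1 wild type against 2 KO, the values were 2.84 for Cep85l, 3.41 for Cep170b, 2.52 for Cep350, 2.02 for Cep162, 4.17 for Cdk5rap2, 1.66 for Cep83 and 6.19 for Cep135. The median over the members there was 0.35, beside 0.23 over all genes. The other prefixes hold 1 library each.

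Members have long transcripts, and fold changes in this experiment followed transcript length. The median longest transcript was 4180 bases over the members and 3061 bases over the tested genes, and 15 of the 39 fell in the longest of 5 equal groups of genes by length. In that group 9 of the 15 members had every KO library above both wild types, against 32.2% of all genes there. The median log2 fold change of these 15 was 1.74, against 0.77 over the group. After each library was corrected for transcript length, the 2 medians were 0.69 and -0.08. Over all 39 members the corrected median was 0.18, against -0.09 over all genes, with 23 above 0 (44.8% of all genes were), and 6 members changed sign. Of the 11 members that lay apart upward, 10 stayed above 0. The correction was computed on all genes with a known length.

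**Figure D3:**
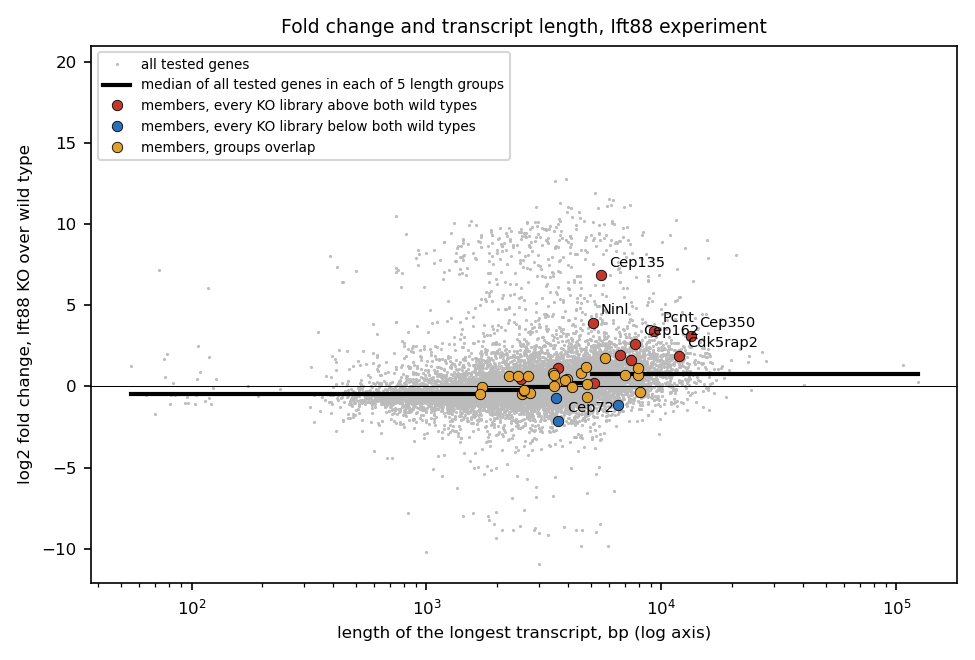
Fitted log2 fold change (Ift88 KO over wild type) against the length of the longest transcript on a log axis, for all tested genes (grey) and the members, coloured by whether the groups lay apart. Black bars give the median of each of 5 equal groups of genes by length; 9 of the 15 members in the longest group are among the 11 with every KO library above both wild types.

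Per kilobase of transcript, the wild-type level of the Ift88 experiment was highest for Cep57, at 14.03 ± 0.259 CPM per kb, then Cep44 at 13.2 ± 0.145, Cep68 at 12.1 ± 2.82 and Plk4 at 11.8 ± 7.72 (SD, n = 2 each). Cep57 and Cep44 did not overlap, while each of the next genes overlapped its neighbour down to the last. Cep57 spanned 13.8 to 14.2 CPM per kb, and Cep68 and Plk4, which reached 14.1 and 17.3, overlapped it. The lowest were Cep350 at 0.111, Ninl at 0.0799 and Cep135 at 0.00343 CPM per kb. These 3 also had fold changes among the highest of the members, and the wild-type level enters both quantities. The median coefficient of variation of the members was 34.1% in the KO and 60.7% in the wild type, against 37.2% and 49.9% over all tested genes. A count of 0 in at least 1 library was found for 6 members.

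Other centrosome genes were taken from a list of 50, all tested, with a median log2 fold change of 0.10 and 28 above 0. edgeR called 0 and DESeq2 2 of them, both higher. These were Wdr62, a spindle pole protein, at 11.6, 13.3 and 24.7 CPM in the KO against 3.12 and 3.53 CPM in the wild type, and Lrrcc1, at 22.1, 24.7 and 18.8 CPM against 7.57 and 7.15 CPM. Pcm1 and Akap9, scaffolds of centriolar satellites and of the centrosome, had log2 fold changes of 1.35 and 2.05, and the centrin gene Cetn3 had -0.81. The median of the members was thus above that of the other centrosome genes, a difference given without a test. After the length correction the medians were 0.18 and 0.035. Of the 50, 10 lay apart upward and 3 downward, beside 13.5% and 11.1% of all tested genes. Proliferation genes were mixed: 11 of 28 were above 0, with a median of -0.12, and none was called by edgeR or DESeq2. Mki67, a marker of cycling cells, stood at 32.2, 36.0 and 3.64 CPM in the KO, against 7.26 and 2.93 CPM in the wild type. Rrm2 stood at 147, 80.2 and 71.2 CPM, against 636 and 37.6 CPM, and Top2a at 186, 191 and 56.3 CPM, against 95.8 and 27.9 CPM. Each of the 3 overlapped. The summed level of the list was 1181 to 2804 CPM in the KO, against 4057 and 1512 CPM in the wild type, and its part in the member values was not tested.

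The second comparison addressed whether centrosomal genes differ in leaflets with the Dzip1 S14R allele. The members were nearly level between the groups: the 25 log2 fold changes ran from -0.06 (Cep250) to 0.14 (Cep57l1), with a median of 0.02, against -0.00033 over all tested genes. No member passed the threshold in edgeR, DESeq2 or limma-voom, and neither did any other gene (0% of 16160 in edgeR). At an unadjusted p under 0.05 in edgeR stood 1 member, Cep57l1, and 959 genes (5.93%). Without wild-type replicate 2 these were 3 members and 2545 of 16431 genes. The 95% intervals of all 25 members lay between -0.22 and 0.27 on the log2 scale, or 0.857 to 1.20 as fold changes. In 2 members (8%) every S14R/+ library lay above every wild-type library, against 5.27% of all genes, and in 0 below, against 5.01%. The 2 became 7, 5 or 4 when S14R/+ replicate 2, wild-type replicate 1 or wild-type replicate 2 was left out, and then 10.2%, 10.8% and 16.5% of all genes lay apart in that direction. Above 0 were 18 of the 25 (72.0%), against 49.9% of all genes, and leaving out each library in turn kept the sign of 11. After the length correction 18 were above 0, against 49.8% of all genes, with a median of 0.020.

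**Figure D4:**
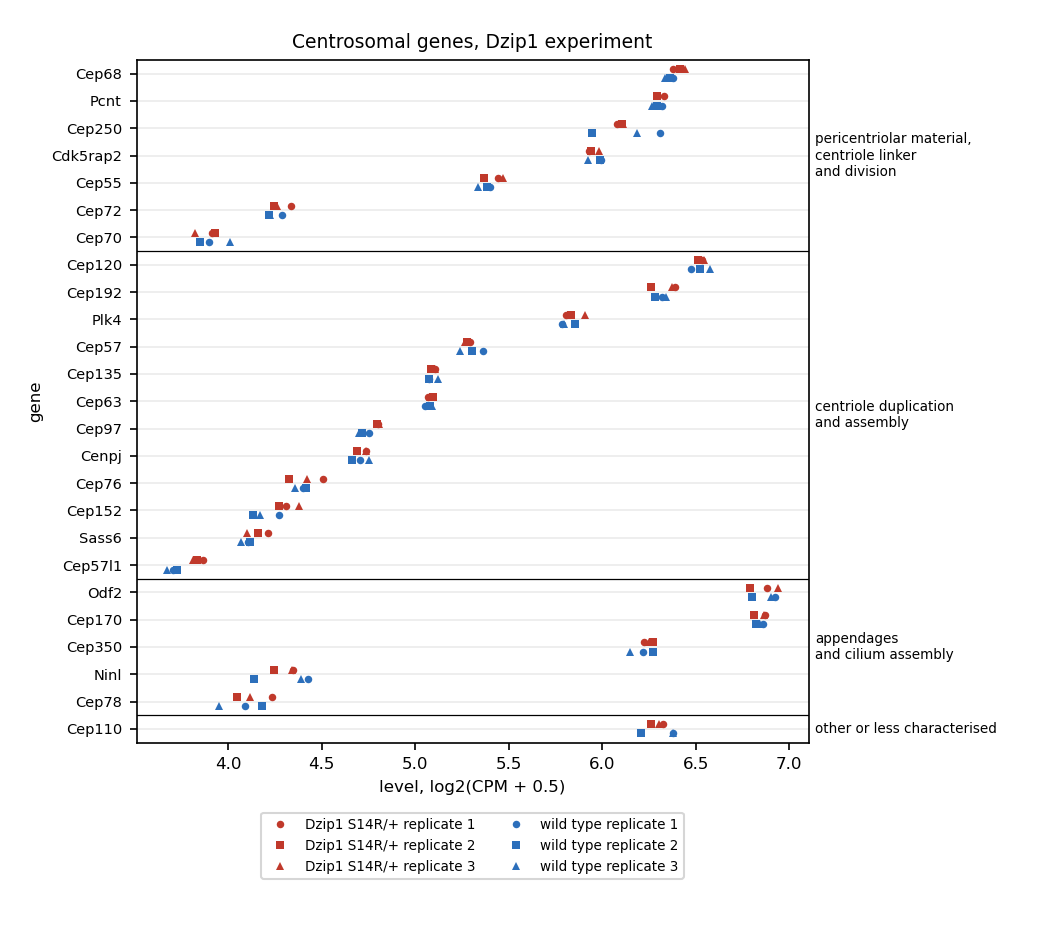
Levels of the 25 members in each library of the Dzip1 experiment, as log2(CPM + 0.5), grouped by role and ordered by wild-type mean, with S14R/+ points (red) above wild-type points (blue) in each row. The points of a gene lie close together, and in Cep57l1 and Cep97 alone all 3 S14R/+ points are to the right of all 3 wild-type points.

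Both genes that lay apart belong to centriole assembly. Cep57l1, a relative of Cep57, stood at 14.1, 13.8 and 13.6 CPM in S14R/+, against 12.5, 12.8 and 12.3 CPM in wild type. All 3 S14R/+ libraries were higher, with a log2 fold change of 0.14 ± 0.0561 (SE; 95% interval 0.016 to 0.27) and adjusted p = 0.828 in edgeR. Cep97 stood at 27.4, 27.3 and 27.5 CPM in S14R/+, against 26.5, 25.8 and 25.5 CPM in wild type, a log2 fold change of 0.078 ± 0.0473 (SE). Cep152 had 19.3, 18.8 and 20.3 CPM in S14R/+, against 18.8, 17.1 and 17.5 CPM in wild type. Its groups met at 18.8 CPM, and the log2 fold change was 0.13 ± 0.0593 (SE; adjusted p = 0.828 in edgeR). Plk4 stood at 57.2 ± 2.07 CPM in S14R/+ and 55.7 ± 1.57 CPM in wild type (SD, n = 3 each), with 0.039. Sass6, at 17.4 ± 0.674 and 16.6 ± 0.297 CPM, had 0.061, and Cenpj, at 25.9 ± 0.504 and 25.6 ± 0.809 CPM, had 0.016. Cep192 had 0.027. Of the 12 genes of this group 11 were above 0, with a median of 0.028.

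Pcnt and Cdk5rap2 of the pericentriolar material were level, Pcnt at 78.5 ± 1.20 CPM in S14R/+ and 78.0 ± 1.49 CPM in wild type, and Cdk5rap2 at 61.3 ± 1.27 and 62.1 ± 1.65 CPM (SD, n = 3 each). Their log2 fold changes were 0.0096 (95% interval -0.063 to 0.082) and -0.018 (-0.10 to 0.065). Cep68 had 0.054 and Cep55 0.057, and Cep72 had 0.040. Cep250, at 67.2, 68.4 and 68.5 CPM in S14R/+, against 78.9, 61.2 and 72.2 CPM in wild type, had the most variable wild-type level of the members, with a coefficient of variation of 12.6%. Among the appendage genes, Odf2 stood at 117 ± 6.14 CPM in S14R/+ and 117 ± 5.28 CPM in wild type, and Ninl at 19.4 ± 0.797 and 19.5 ± 2.10 CPM (SD, n = 3 each). Cep350 and Cep78 had log2 fold changes of 0.034 and 0.058. Cep170, at 0.0030, lay nearest to 0 of all members.

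Per kilobase, Odf2 had the highest wild-type level of the Dzip1 experiment, at 29.6 ± 1.33 CPM per kb, followed by Cep120 at 20.1 ± 0.705 and Cep68 at 16.96 ± 0.265 (SD, n = 3 each), and none of the 3 overlapped the next. The lowest were Ninl at 3.84 ± 0.412, Cep97 at 3.28 ± 0.0599 and Cep152 at 3.08 ± 0.158, of which Cep97 and Cep152 overlapped. From the highest to the lowest gene the level spanned 9.59-fold. The members were steady among libraries, with a median coefficient of variation of 2.22% in S14R/+ and 2.82% in wild type, against 4.37% and 6.44% over all tested genes. Their median wild-type level was also higher, 39.0 against 20.5 CPM, and the spread was not compared at a matched level. Each had at least 938 counts in every library.

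More Cep genes stand in the Dzip1 table under older symbols, which the naming rule does not reach; RefSeq synonyms matched them. Ccdc41, the older symbol of Cep83, was at -0.083 ± 0.0742 (log2 fold change, SE), and 4932415G12Rik, that of Cep83os, had 0.11 ± 0.0922. For 4922501C03Rik, that of Cep162, every S14R/+ library lay below every wild-type library, at 15.6 ± 0.0537 CPM in S14R/+ and 16.4 ± 0.293 CPM in wild type (SD, n = 3 each), a log2 fold change of -0.070. Gm9766 (Cep85l) had -0.10, Ccdc45 (Cep95) -0.088, 1500031L02Rik (Cep19) 0.068 and Azi1 (Cep131) 0.0078, and each of these overlapped. The symbol 5830418K08Rik stands for Cep295 in each table, a centriole assembly gene that had 0.045 here and 2.51 ± 1.93 (SE) in the Ift88 experiment, where its groups overlapped.

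Of the list of other centrosome genes, 47 were tested in the Dzip1 experiment, with a median of 0.035 and none called by edgeR or DESeq2. The smallest p-values belonged to Haus4 and Haus8, subunits of augmin, at 0.12 and 0.088, Akna at -0.12, Kif24 at 0.18 and the gamma-tubulin gene Tubg1 at 0.10. All 28 proliferation genes were above 0, with a median of 0.052, and none was called by either tool. The lowest p-values there were those of Pcna, Mcm5 and Rrm2, at 0.10, 0.080 and 0.13. The summed level of these 28 genes was 4609 to 4897 CPM in S14R/+ and 4437 to 4741 CPM in wild type, so the groups overlapped. Of the 20 cardiomyocyte markers 18 were above 0, with a median of 0.10. Of the 10 tested leukocyte markers 1 was above 0, with a median of -0.29. The summed levels of both lists lay apart between the groups. Cardiomyocyte markers summed to 51950 to 52652 CPM in S14R/+, against 44260 to 50608 CPM in wild type. Leukocyte markers summed to 108 to 120 CPM in S14R/+, against 121 to 150 CPM in wild type. The sums of the other lists of cell type markers overlapped. The 6 erythroid markers were all below 0 (median -0.90; 198 to 425 CPM in S14R/+, against 385 to 753 CPM in wild type), and 3 of 12 fibroblast markers were above 0 (median -0.15). Endothelial (-0.00043), smooth muscle (-0.14), epicardial (-0.09), melanocyte and Schwann (-0.12) and adipocyte (-0.10) markers had the medians given. The part of these shifts in the member values was not tested.

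Set side by side over the 24 members in both tables, the fitted differences had a median 95% interval width of 4.44 (log2) between KO and wild type and 0.211 between S14R/+ and wild type. Pcnt had 3.44 in the Ift88 KO and 0.0096 in S14R/+, Cep135 6.86 and 0.0065, Cep350 3.12 and 0.034, Cdk5rap2 1.90 and -0.018, and Cep72 -2.12 and 0.040. The fitted 6.86 of Cep135 depends on how its single wild-type count is treated. The wild-type levels of the 2 experiments also differ: all 24 were higher in CPM in the Dzip1 wild type, and they summed to 1158 CPM there and 328 CPM in the Ift88 wild type. The tables come from separate experiments and were normalized separately, so this is a description of the libraries. Pcnt, for example, averaged 78.0 CPM in the Dzip1 wild type and 1.41 CPM in the Ift88 wild type, whereas Cep57 averaged 39.0 and 35.4 CPM.

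**Figure D5:**
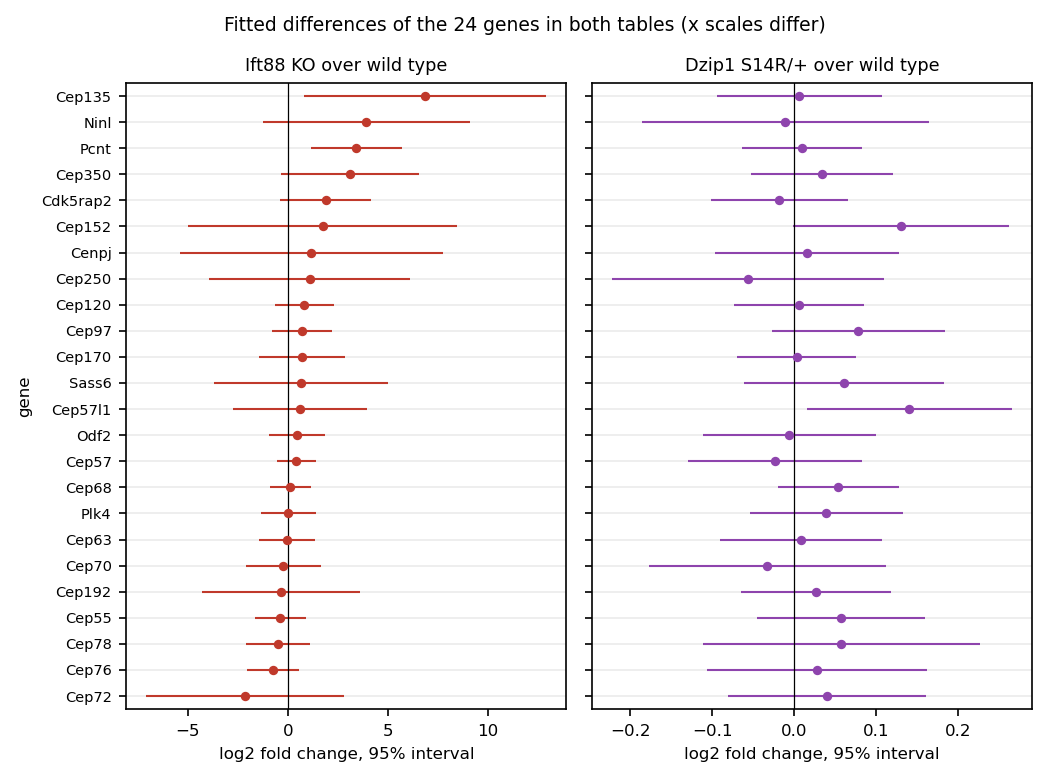
Fitted log2 fold changes with 95% intervals of the 24 members in both tables, Ift88 KO over wild type (left) and Dzip1 S14R/+ over wild type (right), on different scales and in the order of the left panel. In the left panel the intervals of Cep135 and Pcnt alone exclude 0, and in the right panel that of Cep57l1 alone, before any adjustment for the number of genes tested.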

How the data were processed

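RNA of mouse mitral leaflets was made into libraries with SMART-Seq v4, per the labels' protocols. Quality control with FastQC 0.11.5, trimming with cutadapt 1.11, counting with HTSeq and the programs DESeq and DESeq2 are named for GRCm38 (mm10), per the submitters' processing notes. The aligner, annotation and strand setting stay not given in the sources used here.

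Raw counts per gene and library fill the columns of each deposited table, per the file headers. Beside them stand a signal deposited by the authors (baseMean, the mean of size-factor-scaled counts), their log2 fold change with its standard error, a score (the fold change over that error) and a p-value, raw and adjusted, all computed by the authors. In the Dzip1 table these deposited statistics run against mutant over wild type (Spearman -0.573 across genes, against 0.894 in the Ift88 table). That table is named with WT before KIN, the S14R/+ libraries, and its headers do not state the order of the fold changes. The deposited statistics were used for no direction there.

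Counts were tested within each table with the quasi-likelihood test of edgeR 4.0.16 (R 4.3.3) after TMM scaling and filterByExpr with default settings, with Benjamini-Hochberg adjustment over all tested genes and a threshold of 0.05. Fold changes (log2) set mutant over wild type, levels are TMM-scaled CPM, and plots use log2(CPM + 0.5). The steps were checked on simulated data. Alternatives were DESeq2 1.42.0, limma-voom (limma 3.58.1), RLE and upper-quartile scaling, other count filters, an adjusted p threshold of 0.1, a lowess correction for transcript length (span 0.3, GENCODE M21), each library left out, the IR28N title prefix alone or as a covariate, and sex as a covariate in the Dzip1 experiment. Counting members whose groups lay apart with each library left out was added after seeing the data. No 2 libraries were copies of each other. The closest pair, S14R/+ replicate 2 and Dzip1 wild-type replicate 2, differed by a chi-square of 10.8 per degree of freedom. In the Dzip1 experiment wild-type replicate 2 differed by 16.3, 10.8 and 12.0 from the S14R/+ libraries. From wild-type replicates 1 and 3 it differed by 28.6 and 29.7. What this contributes to the member values was not tested.

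Members and lists were chosen with earlier results of these data known. Members named were the 12 with the smallest p at a mean count of at least 50 (none passed the threshold), the 7 genes given by name, and the 3 highest and 3 lowest per kilobase in wild type, with Ift88, Dzip1, 5 other centrosome genes and 3 proliferation genes by smallest p. Others were named to describe their role group, or where a count of a few genes asked for it, after their values were seen. Marker lists of other cell types were read as summed levels in the Ift88 experiment. In the Dzip1 experiment they were read mainly as median log2 fold changes, with sums for some lists. The values of 1 member are not reported here, although it is counted among the 39.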

Additional observations from a re-analysis of the deposited data

How the results depend on the processing

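In the Ift88 experiment the number of genes called was 376 with DESeq2 (2 of them members) and 0 to 187 when libraries were left out in turn, with 187 without wild-type replicate 1 alone, and 0 members in each. The median member log2 fold change was 0.18 after the length correction, beside -0.09 over all genes, and 0.34 to 0.58 when libraries were left out, beside -0.05 to 0.25 over all genes. Members with every KO library above both wild types numbered 11 to 21 with a library left out (16.7% to 32.6% of all genes), and those below 3 to 12 (14.1% to 31% of all genes). In the Dzip1 experiment 0 to 10 genes were called with a library left out (1 when S14R/+ replicate 2 was omitted, 2 for wild-type replicate 1 and 10 for wild-type replicate 2), none of them a member. Members with every S14R/+ library above every wild type numbered 3 to 7 (8.63% to 16.5% of all genes).

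Over all members, the sign held with each library left out for 25 of 39 in the Ift88 experiment and 11 of 25 in the Dzip1 experiment, and none was past the threshold. Among those chosen by the naming rule, signs turned as follows. Cep97 and Cep68 in the Ift88 experiment were -0.32 and -0.32 after the length correction. Plk4 was -0.035 with DESeq2, -0.036 with RLE scaling, -0.13 after the length correction, -0.049 with the title prefix as a covariate and -0.26 among the IR28N libraries, where Cep68 was -0.41. Sass6 was -0.75 with limma-voom and -1.75 with the prefix covariate. With a library left out, Plk4 ranged from -0.51 to 0.90, Sass6 from -0.064 to 1.24 and Cep68 from -0.19 to 0.35. In the Dzip1 experiment the ranges were -0.0049 to 0.11 for Cep78, -0.15 to 0.029 for Cep250, -0.0051 to 0.024 for Pcnt, -0.0053 to 0.038 for Cenpj, -0.042 to 0.035 for Odf2, -0.096 to 0.046 for Ninl and -0.018 to 0.031 for Cep120. The cause was not tested.

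No paired analysis was possible because the labels give the groups no shared replicate numbers. The title prefix was fitted as a covariate instead, coded as IR28N, which 3 Ift88 libraries share, or other. KO replicate 3 and wild-type replicate 2 thus shared a level although their prefixes differ. The median over the members was 0.60, and 0 genes were called. With 1 wild type left, the fit takes its variability to be that of the other libraries. Total counts were equal (31.4 M) in KO replicate 1 and wild-type replicate 1, where Ninl had 60 and 0 counts and Cep152 had 269 and 0. The spread between libraries limits the Ift88 values.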
